A study of Mus musculus with 12 samples.

Results

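The oxidative phosphorylation genes of mouse hippocampus are described here: the subunits of the respiratory chain complexes I to IV and of ATP synthase, complex V. Members were taken by gene symbol from the deposited table, as protein-coding rows named mt-Nd, mt-Co, mt-Cyt or mt-Atp, Nduf followed by a letter from a, b, c, s or v and a digit, Sdha to Sdhd, Uqcr, Cox with a digit from 4 to 8, or Atp5. The rule found 98 of the 36119 rows: 13 genes encoded by mitochondrial DNA and 85 encoded by the nucleus. It reads symbols only and uses no measured value. Cyc1, Cycs and Ndufab1, which also serve the chain, fall outside its patterns, and 12 rows whose symbols match are not protein-coding. Complex I has 7 mitochondrial and 35 nuclear members, complex II has 4 nuclear members, complex III has 1 and 8, complex IV has 3 and 20, and complex V has 2 and 18. Of the 98, 96 had a mean value of at least 1 over the 12 libraries and were tested: all 13 mitochondrial genes and 83 nuclear ones. Cox8c, a testis isoform listed at 0 in all 12 libraries, and a second row with the symbol Atp5o were not.

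RNA had been taken from 12 hippocampi of C57BL/6 mice on postnatal day 70, 3 mice in each of 4 groups. All pups were injected under the skin 2 times, 2 hours apart, on postnatal days 6 and 7, with ethanol at 2.5 g/kg in 0.15 M saline or with an equal volume of saline alone. Housing from day 21, with 2 to 6 mice a cage listed for all groups, was standard or enriched. Enriched means colony cages of same-sex littermates with wheels and toys. The groups are called standard saline and standard ethanol by their housing and injection, and likewise enriched saline and enriched ethanol, and the question of the series is how the hippocampal transcriptome after early alcohol differs with later enrichment. The labels call the ethanol exposure prenatal although every injection was given after birth, and they do not give the sex, litter or cage of a mouse. The p-values therefore measure the spread between these libraries only. Whole hippocampus was used, so less RNA per cell and fewer cells of a type cannot be told apart. Markers of the tissue were present: Slc17a7, of excitatory neurons, lay between 475 and 619, and Prox1, of dentate granule cells, between 18.7 and 41.9.

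Complex I takes electrons from NADH and complex II from succinate, complex III passes them to cytochrome c, and complex IV gives them to oxygen. The proton gradient that complexes I, III and IV build drives ATP synthase. Mitochondrial DNA encodes the most hydrophobic core subunits, is transcribed from both strands as long precursors by its own polymerase, and depends on the nucleus for the other subunits, the transcription machinery and the assembly factors. Neurons draw most of their ATP from this chain, which pays for ion pumping after synaptic activity.

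Values are on the authors' scale, which they name TPM: the abundance of a gene per unit of transcript length, relative to the rest of the library. The columns summed to between 973187 and 1024536 rather than to 1 fixed total, and the sequencing depth is unknown. Differences were tested with limma on log2(value + 0.5) for 14947 genes, with Benjamini-Hochberg adjustment over all of them and a threshold of 0.05. A log2 difference on that scale understates the change of low genes.

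Several libraries stood apart from the rest, and values without them are given beside the medians and some of the genes they move. Standard saline 3 and standard ethanol 1 held the highest 2 values for 8 of the 13 mitochondrial genes. Over all 14947 genes tested, these libraries were both above the other 10 for 5.29% and both below for 3.61%. They were picked after the values were seen, so these counts describe the libraries and carry no test. Among the 83 nuclear members they were both above the others for 1, Cox7b2 (which has a mean of only 1.75), and both below for 7 (Ndufa11, Ndufb10, Ndufs5, Ndufs7, Atp5g3, Atp5k and Atp5mpl). The pseudogene Gm48981 was listed at 9.08 and 10.9 in these libraries and at 0 in the other 10. Enriched saline 2 stood apart in another way: the summed value of 14 choroid plexus markers was 7913 there, against 52.3 to 462 in the other 11 libraries, with the transport protein gene Ttr at 7503.

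Near-identical copies of mitochondrial DNA in the nuclear genome bear on the values of several mitochondrial members. A block on chromosome 1 (GRCm38, chr1:24611535-24616197, minus strand) holds unprocessed pseudogenes that are annotated as separate genes and have rows of their own. Gm28661 is identical to mt-Co2 (chrM:7013-7696) over all 681 bases of the copy, Gm28437 to mt-Co3 (chrM:8607-9390) over 783, and Gm10925 to mt-Atp6 (chrM:7927-8607) over 678. The genes are longer than their copies by 3, 1 and 3 bases. The last bases of each pair are shown because those in capitals, present in the gene and absent from the copy, are all that separates the sequences; the genes' ends run from positions 645 to 684, 745 to 784 and 642 to 681, counted from 1 at the gene's first base, and the bases come from the GENCODE M21 transcripts.
mt-Co2: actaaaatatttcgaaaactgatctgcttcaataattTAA
Gm28661: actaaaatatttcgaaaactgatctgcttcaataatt
mt-Co3: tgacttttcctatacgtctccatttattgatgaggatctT
Gm28437: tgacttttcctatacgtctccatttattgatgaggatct
mt-Atp6: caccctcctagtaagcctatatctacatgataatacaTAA
Gm10925: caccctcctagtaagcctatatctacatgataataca

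The copy of mt-Nd3 (chrM:9459-9806), Gm28438, differs from the gene in 1 of 345 aligned bases, T3C, where the gene's base stands first and positions count from the gene's first base. Its first 27 bases are shown with that base in capitals, since it is the single base by which the aligned stretches differ.
mt-Nd3: atTaacctgtacactgttatcttcatt
Gm28438: atCaacctgtacactgttatcttcatt
Gm28438 was listed at 78.0 in enriched saline 1 and 68.5 in enriched ethanol 1 and at 2.68 or less in the other 10 libraries, beside an mt-Nd3 of 9011 to 13357. Gm29216 matches 486 of the last 492 bases of mt-Co1 (chrM:5328-6872). Gm28439, identical to 876 bases of mt-Nd4, and Gm10222, identical to mt-Nd4l over 294, were listed at 0 in all 12 libraries. By contrast, the other copies carried large values: 80.2% to 89.1% of the sum of gene and copy for mt-Co2, 55.5% to 68.0% for mt-Co3, 42.3% to 47.4% for mt-Co1 and 14.8% to 35.5% for mt-Atp6. The listed copies together held 4.52% to 5.36% of the table and the 13 mitochondrial genes 6.52% to 7.81%, so the values of mt-Co1, mt-Co2, mt-Co3 and mt-Atp6 are uncertain as levels. No 31-base stretch of mt-Nd1 recurs in another annotated transcript. Some neighbours overlap on mitochondrial DNA. mt-Atp8 and mt-Atp6 share 13 stretches of 31 bases, which also makes their values uncertain. mt-Nd4l overlaps with mt-Nd4, and mt-Nd5 with mt-Nd6 on the other strand, but neither pair shares a stretch of that length.

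On this per-length scale the mitochondrial members were far above the nuclear ones. The median of their mean levels was 2869.5, against 257 for the nuclear members that were tested, which is 11.2-fold higher. Among the 13, mt-Co1 had the highest mean level, 20720, and mt-Nd6, which lies on the other strand, the lowest, 575, a 36.04-fold span. Of the nuclear members, 74 had a mean of 50 or more and 11 were under it. In complex I they ran from Ndufb9 at 541 to Ndufb4 at 117, both accessory subunits of the membrane arm, and in complex II from the flavoprotein Sdha at 293 to the membrane anchor Sdhc at 72.6. In complex III they ran from the hinge protein Uqcrh at 732 to the Rieske iron-sulfur protein Uqcrfs1 at 142, in complex IV from Cox8a at 1675 to Cox7b2 at 1.75, and in ATP synthase from the catalytic beta subunit Atp5b at 1402 to the coupling factor Atp5s at 26.4.

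Complex I subunits of mitochondrial DNA form its proton-pumping membrane arm. mt-Nd1 had values of 4356, 4314 and 5097 in the standard saline mice, 5360.3, 4961 and 4831 in the standard ethanol mice, 4291, 4797 and 4222 in the enriched saline mice and 4513, 4527 and 4989 in the enriched ethanol mice. mt-Nd2 had values of 846, 977 and 1490.4 in the standard saline mice, 1231, 869 and 815 in the standard ethanol mice, 794, 918 and 838 in the enriched saline mice and 942, 894 and 1003 in the enriched ethanol mice. For both genes standard saline 3 and standard ethanol 1 had the highest 2 values, and within each comparison the groups overlapped. mt-Nd3 had values of 11379, 11416 and 9879 in the standard saline mice, 13071, 12370.5 and 13225 in the standard ethanol mice, 11405, 13357 and 12458 in the enriched saline mice and 9011, 12003 and 12108 in the enriched ethanol mice. Its order was another: standard saline 3 and enriched ethanol 1 were the lowest libraries, and all 3 standard ethanol values lay above the 3 standard saline values. mt-Nd4 (chrM:10167-11544) had values of 1149, 1373 and 2688 in the standard saline mice, 2270.1, 1299 and 1212 in the standard ethanol mice, 1118, 1237 and 1143 in the enriched saline mice and 1338, 1284 and 1412 in the enriched ethanol mice. mt-Nd4l, its overlapping neighbour, had values of 491, 698 and 928 in the standard saline mice, 756, 556 and 498 in the standard ethanol mice, 503, 552 and 509.9 in the enriched saline mice and 580.1, 506 and 635 in the enriched ethanol mice. Both genes were highest in standard saline 3 and next highest in standard ethanol 1. mt-Nd5 (chrM:11742-13565), which lies at the distal end of the pump, had values of 508, 607 and 1259 in the standard saline mice, 999, 538 and 523 in the standard ethanol mice, 490.2, 555 and 515 in the enriched saline mice and 546, 504 and 595 in the enriched ethanol mice. mt-Nd6 (chrM:13552-14070, minus strand) had values of 532, 566 and 891 in the standard saline mice, 763, 501 and 551 in the standard ethanol mice, 466, 554 and 502 in the enriched saline mice and 482, 514 and 577 in the enriched ethanol mice. mt-Nd5 varied most of the 13, with its highest library 2.57-fold above its lowest. In the 2 libraries that stood apart, mt-Nd5 was 2.37 and 1.88 times the median of the other 10, and mt-Nd4 was 2.13 and 1.80 times. Among those 10, mt-Nd5 ran from 490.2 to 607.

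Cytochrome b is the haem-carrying core of complex III. Its gene, mt-Cytb (chrM:14145-15288), had values of 2608, 2724 and 3741 in the standard saline mice, 3142, 2747 and 2830.4 in the standard ethanol mice, 2463, 2729.9 and 2526 in the enriched saline mice and 3084, 2749.7 and 3089 in the enriched ethanol mice. The same 2 libraries were the highest, and all 3 enriched ethanol values lay above the 3 enriched saline values.

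In complex IV, mt-Co1 holds the oxygen-binding centre, mt-Co2 takes electrons from cytochrome c and mt-Co3 completes the core. mt-Co1 had values of 21515, 19876 and 21901 in the standard saline mice, 20341, 20640.5 and 21004 in the standard ethanol mice, 20341, 21429 and 20890.2 in the enriched saline mice and 19299, 20166 and 21243 in the enriched ethanol mice. mt-Co1 was the steadiest of the 13, with its highest library 1.14-fold above its lowest. mt-Co2 had values of 2255, 3150.2 and 2683 in the standard saline mice, 3025, 3264 and 2263 in the standard ethanol mice, 1786, 2022 and 2714 in the enriched saline mice and 2671, 2369 and 2094 in the enriched ethanol mice. mt-Co3 had values of 10183, 10881 and 9398 in the standard saline mice, 11986, 11489.9 and 10073 in the standard ethanol mice, 8297, 9556 and 9602 in the enriched saline mice and 8676, 8314 and 9583 in the enriched ethanol mice. Enriched saline 1 was the lowest library for mt-Co2 and mt-Co3, and the 3 enriched ethanol values of mt-Co3 lay below the 3 standard ethanol values.

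In ATP synthase, mt-Atp6 forms the proton channel beside the rotor and mt-Atp8 is a small membrane subunit. mt-Atp6 had values of 6670.0, 6222 and 6298 in the standard saline mice, 7559.7, 6185 and 5377 in the standard ethanol mice, 5020.0, 5472 and 5736 in the enriched saline mice and 5443, 6300.2 and 5492 in the enriched ethanol mice. The 3 enriched saline values of mt-Atp6 lay below the 3 standard saline values. mt-Atp8 (chrM:7766-7969) had values of 7079.5, 6893 and 8163 in the standard saline mice, 7482, 7174 and 7171 in the standard ethanol mice, 6605, 7186 and 6559.9 in the enriched saline mice and 7355, 7231 and 7411 in the enriched ethanol mice. Standard saline 3 and standard ethanol 1 were again the highest for mt-Atp8, and the 3 enriched ethanol values lay above the 3 enriched saline values.

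**Figure D1:**
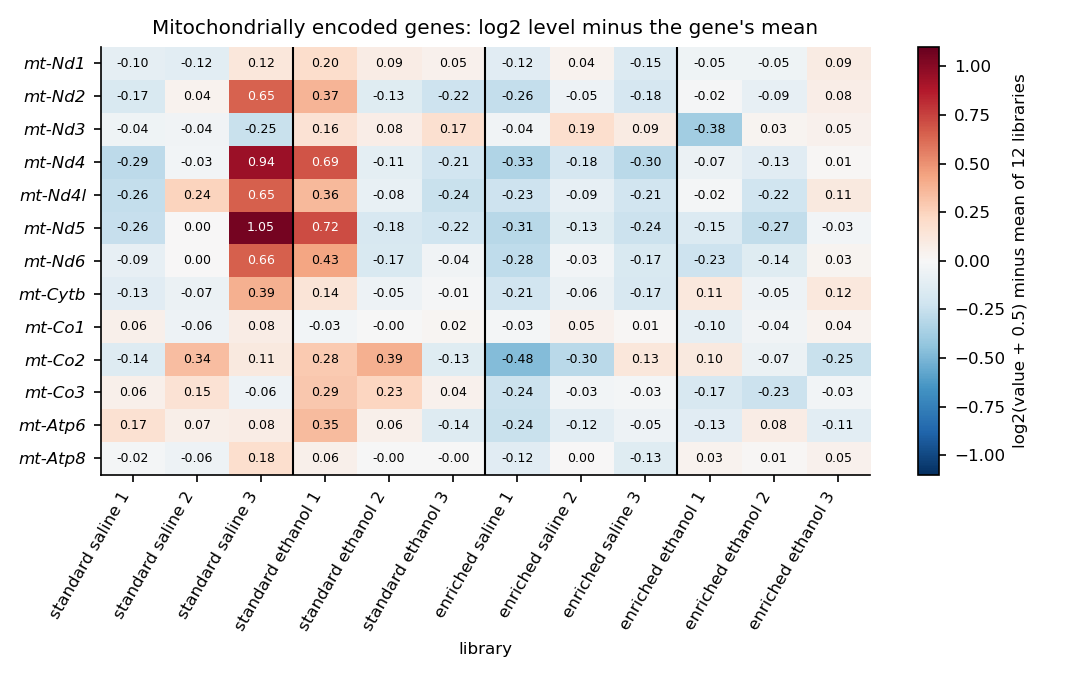
Colour and number give log2(value + 0.5) of each of the 13 mitochondrially encoded genes (rows) minus its mean over the 12 libraries (columns, by group; red is higher). Standard saline 3 and standard ethanol 1 are the reddest columns, with mean deviations of 0.36 and 0.31, while mt-Nd3 and mt-Co3 are at -0.25 and -0.06 in standard saline 3.

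The sum of a gene and its near-identical copy varied less between libraries than the row of the gene for mt-Co2, mt-Co3 and mt-Atp6. The sum for mt-Co2 was 16331, 15916 and 16981 in the standard saline mice, 17530.3, 17754 and 17525 in the standard ethanol mice, 16327, 17347 and 15942 in the enriched saline mice and 15944, 16298 and 17630.4 in the enriched ethanol mice. Its highest library was 1.12-fold above its lowest, against 1.83-fold for the row of the gene alone. The sum for mt-Co3 was 25654, 24469 and 25037 in the standard saline mice, 27454, 27623 and 27492 in the standard ethanol mice, 25187, 26935 and 25522 in the enriched saline mice and 22848, 25951 and 27003 in the enriched ethanol mice. Its fold range was 1.21, against 1.45 for the gene alone, and that of mt-Atp6 was 1.25, against 1.51. The sum for mt-Atp6 was 8115, 7881 and 9113 in the standard saline mice, 8869, 8479.7 and 8197 in the standard ethanol mice, 7282, 8083 and 7551 in the enriched saline mice and 7886, 8134 and 8520.3 in the enriched ethanol mice. After summing, mt-Atp6 was highest in standard saline 3 and standard ethanol 1, so that 9 of the 13 mitochondrial genes had their highest values there. The 4 others were mt-Nd3, mt-Co1, mt-Co2 and mt-Co3. For mt-Co1 the fold range was 1.14 for the gene and 1.16 for the sum.

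**Figure D2:**
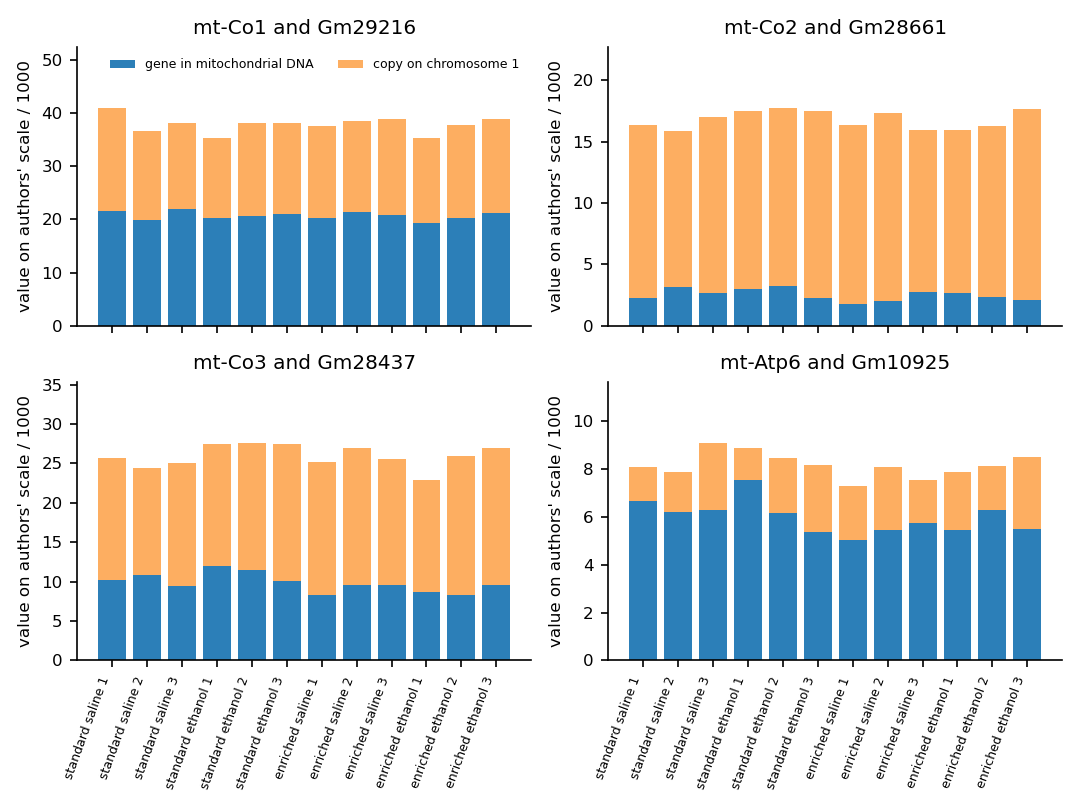
Bars stack the value of each gene in mitochondrial DNA (blue) and of its copy on chromosome 1 (orange), on the authors' scale divided by 1000 and starting at 0, for each of the 12 libraries. The copy holds most of the mt-Co2 bar, 80.2% to 89.1%, and the whole bars vary less than their blue parts for mt-Co2, mt-Co3 and mt-Atp6.

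Set against the nuclear members, the mitochondrial ones were relatively higher in 2 libraries than in the other 10. The mean log2 level of the 13 mitochondrial genes minus that of the 83 nuclear ones was 3.59, 3.84 and 4.21 in the standard saline mice, 4.16, 3.75 and 3.67 in the standard ethanol mice, 3.50, 3.59 and 3.71 in the enriched saline mice and 3.81, 3.65 and 3.79 in the enriched ethanol mice. The means were 3.88 ± 0.31, 3.86 ± 0.26, 3.60 ± 0.11 and 3.75 ± 0.09 in that order (SD, n = 3 each). Standard saline 3 and standard ethanol 1 were the only libraries above 4. Without them the standard groups averaged 3.72 and 3.71. The ranges of the 4 groups overlapped with and without them, and no p is given for these scores.

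**Figure D3:**
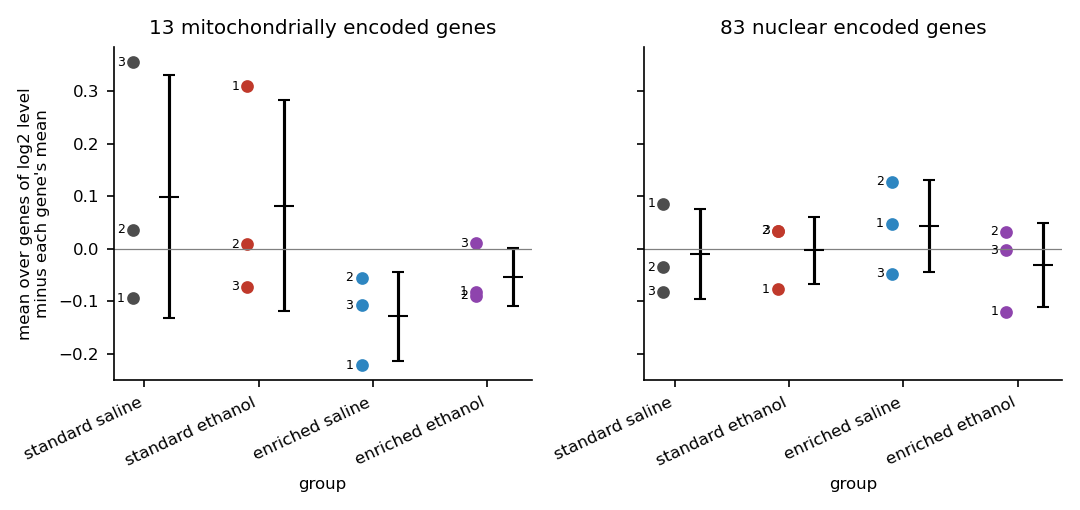
Points are libraries, numbered by replicate, and give the mean over genes of the log2 level minus each gene's own mean; black bars show the group mean and SD (n = 3). Among the 13 mitochondrial genes standard saline 3 (0.36) and standard ethanol 1 (0.31) lie above the rest, and the same libraries lie at -0.08 and -0.08 among the 83 nuclear genes.

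No member passed limma's adjusted threshold in any comparison, under any of the 27 settings tried. Read against the share of all genes called, that count says little of the members: with limma's adjusted p, 0.0134% of the 14947 genes were called for ethanol in standard cages, 0% for ethanol in enriched cages, 0.0268% for enrichment in saline mice, 0.00669% for enrichment in ethanol mice, 0.0134% for the interaction, 0.0134% for ethanol averaged over housing and 0.0201% for enrichment averaged over exposure. These comparisons share libraries, so their values are set side by side and not compared. The smallest adjusted p of a member was 0.266, for Cox7a1.

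For ethanol against saline in standard cages, the differences of both sets of members centred near 0. The median log2 difference was -0.03 over the 13 mitochondrial members and 0.00 over the 83 nuclear ones, against 0.00 over all genes tested. The mitochondrial median was 0.08 without standard saline 3 and -0.10 without standard ethanol 1, and the nuclear one -0.04 without standard saline 3 and 0.04 without standard saline 1. At an unadjusted limma p under 0.05 there were 0 of 96 members, against 7.39% of all genes. mt-Nd3 had the smallest p of the mitochondrial members, at 0.25 (SE 0.12, limma adjusted p = 0.681). Of the nuclear members, Ndufv3, a flavoprotein-module subunit of complex I, had the smallest, at 0.14 (SE 0.08, limma adjusted p = 0.738). The 3 nuclear members with the smallest p in each direction also included Atp5g2 (-0.36), Cox6b2 (0.69), Cox7a1 (0.44), Ndufb8 (-0.07) and Cox6a1 (-0.09). Groups did not overlap for mt-Nd3 and the testis-type isoform Cox6b2, which were higher with ethanol (6.11% of all genes), and for Ndufs1, which was lower (5.99%).

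Ethanol against saline in enriched cages gave small values in opposite directions. The median was 0.09 over the mitochondrial members, 10 of them above 0, and -0.05 over the nuclear members, 68 of them below 0. That nuclear median was -2.46e-05 without enriched ethanol 1, and the mitochondrial one 0.03 without enriched saline 1. An unadjusted limma p under 0.05 was found for 3 of 96 members, against 7.76% of all genes. Ndufv1, the NADH-binding subunit of complex I (chr19:4007384-4012806), had values of 219, 205 and 195 in the standard saline mice, 190.3, 205 and 205 in the standard ethanol mice, 217, 217 and 204 in the enriched saline mice and 179.8, 194 and 189.6 in the enriched ethanol mice. The 3 enriched ethanol values lay below the enriched saline ones and overlapped with standard ethanol 1, and the difference was -0.18 (SE 0.06, limma adjusted p = 0.576). Ndufs6, a zinc-binding subunit that is added late in complex I assembly, had values of 145, 142 and 129 in the standard saline mice, 131, 154 and 139.9 in the standard ethanol mice, 125, 143 and 139 in the enriched saline mice and 153, 164 and 158 in the enriched ethanol mice. Its 3 enriched ethanol values lay above the enriched saline ones but overlapped with standard ethanol 2, and the difference was 0.22 (SE 0.07, limma adjusted p = 0.576). Cox7a1, the heart and muscle form of a complex IV subunit, was at -0.88 (SE 0.29, limma adjusted p = 0.576), and at -0.59 without enriched saline 2. Among nuclear members, the 3 smallest p in each direction also belonged to Ndufb7 (-0.13), Cox7b2 (0.70) and Ndufa8 (0.06). Cox7b2 was at 0.33 without enriched saline 2. Groups did not overlap for 4 members higher with ethanol, mt-Nd4, mt-Cytb, mt-Atp8 and Ndufs6 (7.78% of all genes), and 4 lower, Ndufb8, Ndufv1, Cox6c and Cox7a1 (7.45%).

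Enrichment in saline mice held the smallest adjusted p of any member, which did not pass the threshold. The median was -0.24 over the mitochondrial members, 12 of 13 below 0, and 0.03 over the nuclear members, against 0.00 over all genes tested. Without standard saline 3 the mitochondrial median was -0.10 and the nuclear one -0.02. An unadjusted limma p under 0.05 was found for 2 of 96 members, against 10% of all genes. Cox7a1 (chr7:30184144-30186078), had values of 9.38, 4.91 and 5.71 in the standard saline mice, 9.11, 8.57 and 8.96 in the standard ethanol mice, 11.9, 22.9 and 12.8 in the enriched saline mice and 5.54, 10.6 and 8.78 in the enriched ethanol mice. All 3 enriched saline values lay above those of the other 9 libraries, and the difference was 1.18 (SE 0.29, limma adjusted p = 0.266). It was 0.89 without enriched saline 2. Atp5s had values of 22.3, 19.5 and 25.5 in the standard saline mice, 17.1, 26.6 and 28.7 in the standard ethanol mice, 26.8, 32.0 and 34.4 in the enriched saline mice and 26.2, 31.2 and 26.1 in the enriched ethanol mice. Its difference was 0.46 (SE 0.18, limma adjusted p = 0.432). Nuclear members alone, taken by the 3 smallest p in each direction, also included Cox7b2 (-0.74) and Ndufv3 (0.16). The others were the complex III core protein Uqcrc1 (-0.06) and Ndufs1 (-0.05), the iron-sulfur subunit of complex I. Cox7b2 was at -0.38 without enriched saline 2. Groups did not overlap for 3 members higher with enrichment, Cox7a1, Atp5g2 and Atp5s (7.4% of all genes), and for mt-Atp6, which was lower (6.57%).

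For enrichment in ethanol mice the mitochondrial median was -0.14, with 11 of 13 below 0, and the nuclear median -0.03. Without standard ethanol 1 the mitochondrial median was -0.0069 and the nuclear one -0.07, and without enriched ethanol 1 the nuclear one was 0.02. An unadjusted limma p under 0.05 was found for 2 of 96 members, against 5.57% of all genes. mt-Co3 differed by -0.34 (SE 0.10, limma adjusted p = 0.861), and the sum with its copy differed by -0.13 (limma adjusted p = 0.927). Atp5g2, which encodes one of the isoforms of the rotor ring subunit c, had values of 37.6, 33.7 and 30.4 in the standard saline mice, 22.1, 23.3 and 35.1 in the standard ethanol mice, 42.8, 52.9 and 37.6 in the enriched saline mice and 29.1, 49.3 and 34.6 in the enriched ethanol mice. Its difference was 0.48 (SE 0.21, limma adjusted p = 0.887), and standard ethanol 3 overlapped with the enriched values. The 3 smallest p among nuclear members in each direction also included Ndufs6 (0.16) and Atp5s (0.23), and Uqcrq (-0.21), Cox7c (-0.13) and Cox8a (-0.11). Groups did not overlap for Sdha, higher with enrichment (6.07% of all genes), and for 4 members lower, mt-Nd3, mt-Co3, Uqcrfs1 and Cox6b2 (5.97%).

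The interaction asks whether the ethanol difference itself differed between housings. The median was 0.13 over the mitochondrial members and -0.04 over the nuclear members, 63 of 83 below 0. Without standard saline 3 the mitochondrial median was -0.05. The nuclear median was -0.09 without standard saline 1 and -0.000393 without enriched ethanol 1. An unadjusted p under 0.05 was found for 2 of 96, against 7.41% of all genes: Cox7a1, at -1.32 (SE 0.40, limma adjusted p = 0.564), and mt-Nd3, at -0.42 (SE 0.16, limma adjusted p = 0.62). Without enriched saline 2 the value for Cox7a1 was -1.03. Further nuclear members among the 3 smallest p in each direction were Cox6b2 (-1.28), Ndufa7 (-0.21), Ndufs6 (0.20), Cox7b2 (0.84) and Ndufa4l2 (0.56). Cox6b2 was at -0.71 and Cox7b2 at 0.47 without enriched saline 2.

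Averaged over the other factor, 2 of 96 members had an unadjusted limma p under 0.05 for ethanol (8.02% of all genes) and 6 for enrichment (7.96%). For ethanol these were Ndufs6 at 0.13 (SE 0.05, limma adjusted p = 0.588) and Ndufv1 at -0.11 (SE 0.04, limma adjusted p = 0.543). For enrichment they were mt-Co3 at -0.24 (SE 0.07, limma adjusted p = 0.448), mt-Co2 at -0.29, mt-Atp6 at -0.19, Cox7a1 at 0.52, Atp5g2 at 0.43 and Atp5s at 0.34. Summed with their copies, mt-Co3 differed by -0.04 (limma adjusted p = 0.886), mt-Co2 by -0.04 (adjusted p = 0.881) and mt-Atp6 by -0.09 (adjusted p = 0.689). The averaged enrichment median was -0.19 over the mitochondrial members, with all 13 below 0, and -0.02 with standard saline 3 and standard ethanol 1 left out. No member had 6 libraries of one level lying wholly apart from the other 6, which 0.154% of all genes did as higher and 0.261% as lower with ethanol, and 0.234% and 0.14% with enrichment.

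Several lists of cell type markers lay mostly on one side of 0 in the same comparisons, with 0 markers called by limma's adjusted test. For enrichment in saline mice, all 12 dentate granule cell markers (median -0.42), all 14 myelin markers (-0.18) and all 5 erythrocyte markers (-0.94) were below 0, and all 12 meningeal fibroblast markers (0.85) were above 0. For ethanol in standard cages, all 12 dentate granule cell markers were below 0 (-0.44), and all 12 meningeal markers (0.50) and 12 of 14 myelin markers (0.45) were above it. For ethanol in enriched cages, 13 of 14 myelin markers (0.29) and all 5 erythrocyte markers (0.26) were above 0, and 10 of 12 meningeal (-0.19) and all 14 choroid plexus markers (-1.18) were below it. For enrichment in ethanol mice, 13 of 14 myelin markers (-0.30), 13 of 14 choroid plexus markers (-0.48) and all 5 erythrocyte markers (-0.46) were below 0. The summed dentate granule cell markers ran from 336 to 475 in the standard saline mice, 255 to 329.7 in the standard ethanol mice, 273 to 344 in the enriched saline mice and 302 to 344 in the enriched ethanol mice. Standard saline 2 had the highest dentate sum of the 12 libraries, 475, and the lowest meningeal sum, 419. That library enters the comparisons for ethanol in standard cages and for enrichment in saline mice. Erythrocyte sums ran from 1487 to 7865 in the standard saline mice and 1398 to 2340 in the enriched saline mice. Myelin sums in those groups ran from 3461 to 5930 and from 3455 to 4282. Astrocyte sums ran from 3130 to 3885 in the standard saline mice and from 3513 to 3649 in the standard ethanol mice. They ran from 3082 to 3186 in the enriched saline mice and from 3411 to 3564 in the enriched ethanol mice. The astrocyte sums of the enriched groups did not overlap. The part of these markers in the members' differences was not tested.

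**Figure D4:**
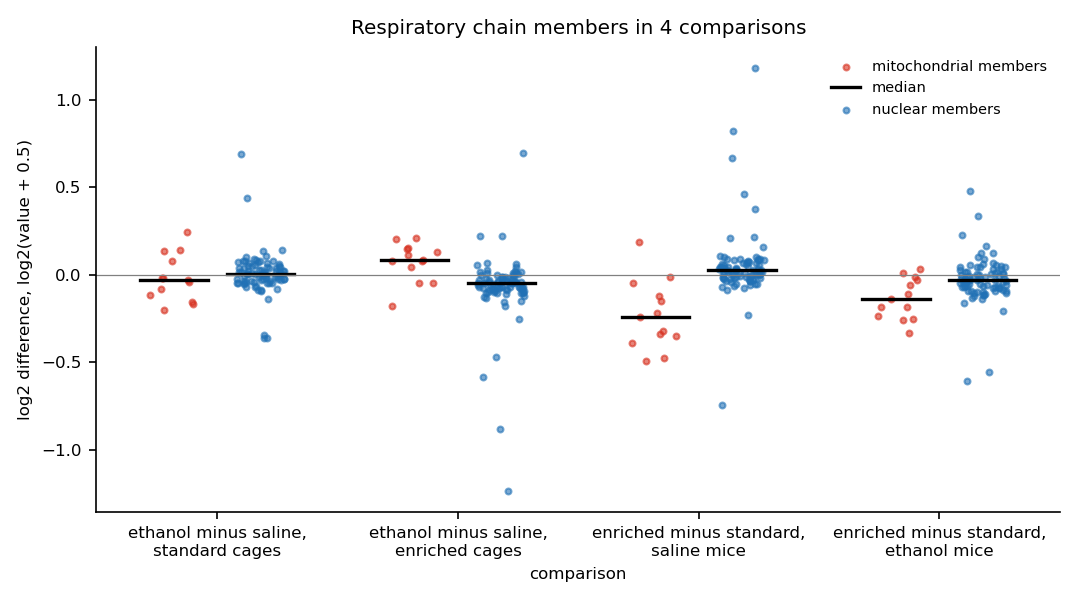
Each point is the log2 difference of 1 member in a comparison of 2 groups, red for the 13 mitochondrial and blue for the 83 nuclear members, with black lines at the medians. The mitochondrial medians are -0.03, 0.09, -0.24 and -0.14 from left to right, and the nuclear ones lie within 0.05 of 0.

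By complex, the nuclear members differed little. In enriched cages the medians for ethanol were -0.06 for complex I, -0.02 for complex II, -0.06 for complex III, -0.08 for complex IV and -0.04 for ATP synthase. All 4 members of complex II and all 8 of complex III were below 0; in standard cages 4 of 4 and 2 of 8 were. In standard cages the same medians were -0.00, -0.03, 0.01, 0.02 and 0.01. For enrichment in ethanol mice, Uqcrq of complex III was at -0.21 (SE 0.10, limma adjusted p = 0.887) and Cox7c of complex IV at -0.13 (SE 0.08, limma adjusted p = 0.921). The median within-group SD of the log2 values was 0.16 for the mitochondrial members, 0.10 for the nuclear members and 0.16 for all genes tested. Among genes with a mean of at least 100 it was 0.093 for the nuclear members and 0.091 for other protein-coding genes.

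Isoforms of complex IV, which here counts Ndufa4 and Ndufa4l2 as its own, differ by tissue and oxygen supply, and the ubiquitous forms dominated here. Mean levels were 1207 for Cox4i1 and 1.89 for the lung and hypoxia form Cox4i2, 827 for Cox6a1 and 10.7 for the muscle form Cox6a2, and 710.3 for Cox6b1 and 4.60 for Cox6b2. Cox7a2 stood at 443 and Cox7a1 at 9.92, Cox8a at 1675 and the muscle form Cox8b at 5.53, and Ndufa4 at 788 and Ndufa4l2, which hypoxia induces, at 2.99. Cox6b2 had values of 4.88, 1.64 and 3.59 in the standard saline mice, 5.34, 5.43 and 5.24 in the standard ethanol mice, 3.86, 12.2 and 2.93 in the enriched saline mice and 2.49, 3.88 and 3.79 in the enriched ethanol mice. Cox8b had values of 4.06, 6.13 and 1.49 in the standard saline mice, 7.64, 3.10 and 2.25 in the standard ethanol mice, 3.30, 28.5 and 2.50 in the enriched saline mice and 2.17, 2.19 and 3.06 in the enriched ethanol mice. Both were highest in enriched saline 2, as was Cox7a1, and this is the library with the high choroid plexus markers. The summed markers were 103.6 to 158 in the standard saline mice, 58.3 to 462 in the standard ethanol mice, 52.3 to 7913 in the enriched saline mice and 64.0 to 68.0 in the enriched ethanol mice. For enrichment in saline mice, 13 of the 14 markers had a log2 difference above 0, with a median of 1.04. That library was also the highest for the 12 summed meningeal fibroblast markers, at 2247, against 1555 and 1698 in the other enriched saline mice and 419 to 1981 in the standard saline mice. Of 10 endothelial markers, 7 were above 0 for enrichment in saline mice (median 0.25). Their part in the differences of these isoforms was not tested. Without that library the averaged enrichment difference of Cox7a1 was 0.38.

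**Figure D5:**
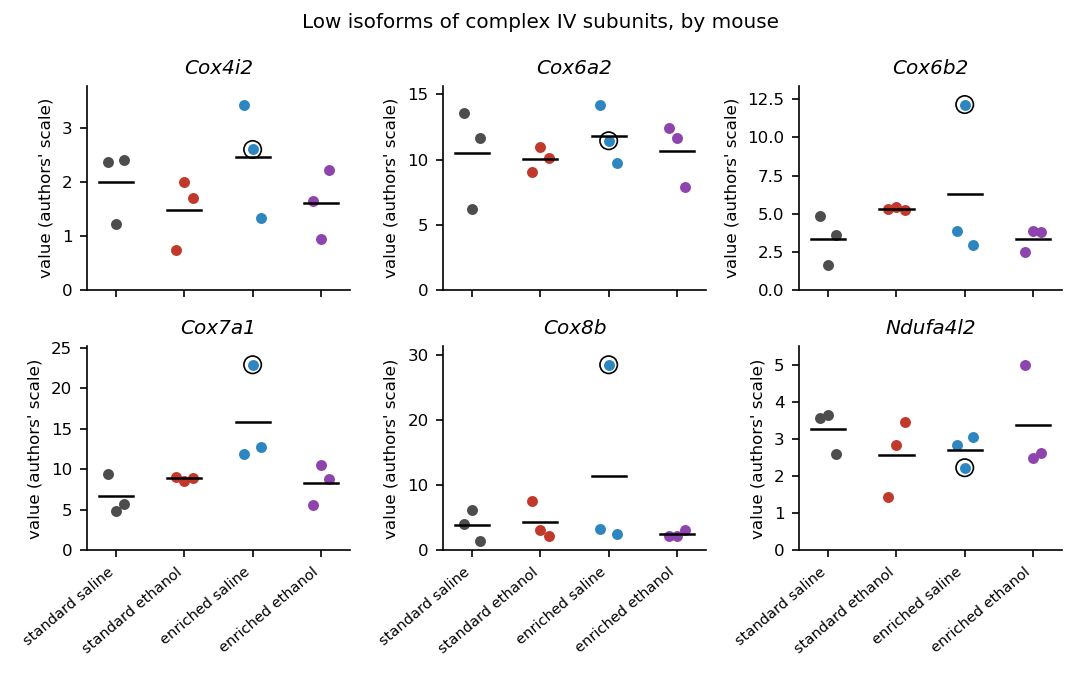
Points are the 12 mice by group on the authors' scale from 0, with lines at group means; enriched saline 2 is circled. That library is the highest for Cox6b2 (12.2), Cox7a1 (22.9) and Cox8b (28.5) and not for Cox4i2, Cox6a2 or Ndufa4l2.

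Nuclear members tended to lie on the same side of their own means within a library. The number of the 83 above their own mean was 76, 40 and 11 in the standard saline mice, 12, 65 and 60 in the standard ethanol mice, 58, 74 and 20 in the enriched saline mice and 6, 63 and 41 in the enriched ethanol mice. Between 47.7% and 51.7% of all genes tested were above their own mean in each library. That share is tied to the scaling of the libraries, and no set of genes alike in length or level was compared for this. High and low libraries occurred within every group. Enriched ethanol 1, standard saline 3 and standard ethanol 1 were the lowest. A measure of transcript length moved with this, with its 3 highest values in those 3 libraries. The median log2 deviation from their own means of the longest 20% of protein-coding genes, minus that of the shortest 20%, was -0.11, 0.02 and 0.12 in the standard saline mice, 0.11, -0.04 and -0.05 in the standard ethanol mice, -0.06, -0.12 and -0.01 in the enriched saline mice and 0.14, -0.03 and -0.02 in the enriched ethanol mice. The nuclear members are short, with a median transcript length of 994 bases against 3446 for protein-coding genes tested, and the mitochondrial members have 784. The part of length in the result was not tested. Median GC content was 37.1% for the mitochondrial members, 50.3% for the nuclear members and 49.7% for protein-coding genes tested.

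Nuclear members hold words in their promoters that the rule did not use. RefSeq windows of 300 bases, from 250 before to 50 after the start (GRCm38.p6), matched 68 of the 85. The words searched on both strands were GCGCATGCG for NRF1, a master factor of respiratory genes, ACCGGAAG for GABPA, AAGATGGC for YY1 and TCAAGGTCA for ESRRA. GCGCATGCG stood in 8 of the 68 (11.8%), against 3.86% of the windows of 11153 tested protein-coding genes. ACCGGAAG stood in 6 (8.82% against 4.83%), AAGATGGC in 10 (14.7% against 4.81%) and TCAAGGTCA in 2 (2.94% against 0.377%). Any of them stood in 25 (36.8% against 13%), and the window of Sdhd held 2 of the words. A match is a description and not a site. Counted from the RefSeq start, AAGATGGC began at -88 in Atp5j and -3 in Atp5f1. In the other members that held it, it began at 22 to 38, after the start. GCGCATGCG nearly reads the same on both strands and was counted once per window. Stretches around it are shown for a member of complex I, of complex IV and of ATP synthase, with the word in capitals. It lies upstream of the RefSeq start in each. The stretches lie at chr17:56717682-56717730 (plus strand), chr5:115349092-115349140 (minus) and chr5:108434421-108434469 (minus). In Atp5k the word covers the start of the gene in GENCODE, at position 108434448.
Ndufa11: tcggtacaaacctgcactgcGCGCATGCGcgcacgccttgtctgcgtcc
Cox6a1: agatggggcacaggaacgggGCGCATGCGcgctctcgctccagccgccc
Atp5k: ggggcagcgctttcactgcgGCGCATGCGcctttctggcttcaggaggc

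Genes that build and serve the chain were taken from 8 lists with 272 genes tested: assembly factors, expression of mitochondrial DNA, the mitochondrial ribosome, biogenesis regulators, the tricarboxylic acid cycle, carriers of electrons and metabolites, protein import and glycolysis. With limma, 0 passed the adjusted threshold in any comparison, and the smallest adjusted p was 0.222. Read against the same shares of all genes as above, an unadjusted p under 0.05 was found for 9 (3.31%) for ethanol in standard cages, 20 (7.35%) for ethanol in enriched cages, 18 (6.62%) for enrichment in saline mice and 10 (3.68%) for enrichment in ethanol mice. Ppargc1a, the coactivator that drives mitochondrial biogenesis, had values of 18.8, 16.1 and 23.0 in the standard saline mice, 28.2, 22.7 and 23.4 in the standard ethanol mice, 18.8, 19.0 and 18.2 in the enriched saline mice and 22.9, 18.2 and 22.9 in the enriched ethanol mice. For ethanol in standard cages the smallest limma p in each list belonged to Uqcc3 (0.27, SE 0.11, adjusted p = 0.644), Polg (-0.28, SE 0.09, adjusted p = 0.484), Mrpl23 (-1.04, SE 0.30, adjusted p = 0.455), Ppargc1a (0.36, SE 0.13, adjusted p = 0.565), Pdk1 (-0.16, SE 0.09, adjusted p = 0.733), Coq2 (-0.12, SE 0.05, adjusted p = 0.68), Tomm6 (0.21, SE 0.10, adjusted p = 0.689) and Pfkl (-0.30, SE 0.09, adjusted p = 0.498). For ethanol in enriched cages they belonged to Sdhaf4 (-0.33, SE 0.10, adjusted p = 0.576), Mterf2 (-0.40, SE 0.13, adjusted p = 0.576), Mrps15 (-0.31, SE 0.08, adjusted p = 0.551), Sirt1 (0.25, SE 0.11, adjusted p = 0.625), Pdk1 (-0.33, SE 0.09, adjusted p = 0.572), Coq8a (0.42, SE 0.14, adjusted p = 0.576), Timm21 (-0.34, SE 0.17, adjusted p = 0.656) and Slc2a1 (0.52, SE 0.13, adjusted p = 0.551). Polg copies mitochondrial DNA, Mterf2 binds it, Slc2a1 carries glucose and Pdk1 restrains pyruvate entry. For enrichment in saline mice the genes were Sdhaf4, Polg, Mrps21, Ppard, Pdk2, Slc25a27, Timm44 and Pfkp, and for enrichment in ethanol mice Uqcc3, Trmt5, Mrps18b, Creb1, Dlat, Ckmt1, Hspd1 and Pkm. Of the biogenesis regulators, none of which passed the adjusted threshold, 15 of 16 were above 0 for ethanol in enriched cages. Their median was 0.14, against -0.01 over all genes tested. For ethanol in standard cages 12 of 16 were below 0 (median -0.06), and for enrichment 14 of 16 in saline mice (-0.11) and 6 of 16 in ethanol mice (0.04).

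The mobile carrier between complexes III and IV is cytochrome c. Its gene Cycs lay between 72.3 and 93.0 over the 12 libraries, and Cyc1, the cytochrome c1 of complex III, between 129.9 and 159. Their log2 differences for ethanol were 0.12 (limma adjusted p = 0.847) and 0.01 (limma adjusted p = 0.999) in standard cages and 0.04 (limma adjusted p = 0.934) and 0.01 (limma adjusted p = 0.98) in enriched cages, and for enrichment 0.08 (limma adjusted p = 0.805) and -0.08 (limma adjusted p = 0.782) in saline mice and 0.00 (limma adjusted p = 1) and -0.07 (limma adjusted p = 0.969) in ethanol mice.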

How the data were processed

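Hippocampal RNA of 12 mice, 3 in each of 4 groups named by the sample titles and tags, had been sequenced from stranded libraries after ribosomal RNA depletion, per the labels' protocols. The submitters' processing notes name CASAVA, kallisto, sleuth and the build mm10, without versions. Which annotation the authors used is not given in the sources used here. In the deposited table there is 1 value per gene and library, which the authors name TPM. Its column sums differ, so the deposited values were treated as a signal proportional to TPM within a library, where the design had taken them for TPM; this does not alter the choice of test. Such values keep no read counts, so depth is unknown and no counting interval is given. Reads of near-identical sequences are divided between them by estimate, which bears on the mitochondrial genes and on nuclear members that share stretches with pseudogenes.

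All 12 columns matched samples by name. Symbols, positions and biotypes come from GENCODE M21 on GRCm38 (35879 of 36119 identifiers had a symbol). Members and gene lists were chosen with earlier results of these data known. Group means were fitted with limma 3.58.1 (R 4.3.3) to log2(value + 0.5), using a variance trend and all 12 libraries, for 14947 genes whose mean value reached 1. Two-sided p-values were adjusted over all of these genes (Benjamini-Hochberg) and read at 0.05. The procedure was tested on simulated data. Named genes are the 13 mitochondrial members, the nuclear members with the 3 smallest p in each direction of a comparison, the highest and lowest of each complex, isoform pairs, and the smallest p of each pathway list; other genes were named after their values were seen. Copies were aligned with Biopython 1.88 in Python 3.11.15. Alternatives were 4 scalings, the pseudocount, the filter, the variance trend, library weights, the replicate block, pairs of groups alone and each library left out; 3 more were chosen after seeing the data: the sum of genes and copies, a scaling without mitochondrial sequences and their copies, and leaving out standard saline 3 and standard ethanol 1 together. Correlations of the deviations were -0.151 to 0.0576 over 18 pairs of libraries with the same replicate number. They were -0.0875 to 0.118 over 36 pairs with different numbers. With so few libraries this cannot exclude a shared litter, cage or batch, and the main fit treats the samples as unpaired.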

Additional observations from a re-analysis of the deposited data

How the results depend on the processing

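No member passed limma's adjusted threshold of 0.05 in any of the 27 settings, and the lowest adjusted p of a member was 0.123 (Cox7a1, enrichment in saline mice, without standard saline 1). Over the settings, 0 to 11 of the 96 members had an unadjusted p under 0.05 in a comparison, and 0 to 21 of all genes were called. The 40 named differences of members kept their sign in each setting run. They were picked by small p in the main fit of the same data, so this is no independent check, and some came near 0. For enrichment in ethanol mice, Atp5s was at 0.0023 without standard saline 3 and standard ethanol 1. For ethanol in standard cages, Cox6a1 was at -0.0048 without standard ethanol 1. With the replicate block 0 members were called in any comparison, and 2, 0, 3 and 1 of all genes for ethanol in standard cages, ethanol in enriched cages, enrichment in saline mice and enrichment in ethanol mice.

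The median log2 difference of the mitochondrial members depended on standard saline 3 and standard ethanol 1 for enrichment and for the interaction. With both left out it was -0.0996 for enrichment in saline mice, -0.0069 for enrichment in ethanol mice and -0.0244 for enrichment averaged over exposure. With 1 library left out at a time it ran from -0.313 to -0.0996 (highest without standard saline 3), from -0.217 to -0.0069 (highest without standard ethanol 1), and for the interaction from -0.0451 (without standard saline 3) to 0.235 (without standard ethanol 1).

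The log2 gap between mitochondrial and nuclear levels depends on how it is summarised. Given for the standard saline and standard ethanol mice and then for the enriched saline and enriched ethanol mice, it was 1.26, 1.31, 1.16 and 1.21 for summed values, 2.01, 2.05, 1.97 and 2.01 with the copies in the mitochondrial sum, and 4.2, 4.2, 3.94 and 4.08 without mt-Atp8, mt-Nd4l and mt-Nd6. As a median over members it was 3.61, 3.55, 3.3 and 3.53. Depth is unknown, groups hold 3 libraries each, and members with near-identical copies are uncertain as levels.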
